A study of Mus musculus with 6 samples.

Results

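Genomic imprinting leaves some mammalian genes active mainly on the chromosome inherited from one parent, and many of the genes under this control set the rate of fetal growth. Paternally expressed genes often promote growth and maternally expressed genes often restrain it. In many tissues a number of them are switched down together after birth. The 10 genes described here are Cdkn1c, Grb10, Plagl1, Peg3, Mest, Nnat, Slc38a4, Ndn, Sgce and Peg10, which were measured in fetal and adult mouse mammary cells. They were chosen by earlier results of the same arrays, namely the fetal against adult basal differences in signal, so that difference is only described here for the members. No p is given for a member, and where a member is said to be called, this marks its place against limits applied to all probes and is no independent evidence. All non-control probes were used whose transcript accession belongs to one of them. These were 18 of 55681 probes, and the 10 genes were among 20660 genes matched to a probe.

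RNA was profiled from 3 biological replicates of each of 2 sorted populations of female C57Bl6/J mice, with 1 array for each replicate. The fetal cells came from mammary glands at embryonic day 18.5 (E18.5) and were CD31-CD45-Ter119-EpCAM++CD49f+, which removes endothelial and blood cells and keeps epithelium. The adult cells came from glands of mice 8 to 12 weeks old and were the basal fraction, CD31-CD45-Ter119-BP-1-EpCAM+CD49f+, with the additional depletion of BP-1 positive stromal cells. The labels name no transgene or treatment. The comparison lacks adult luminal cells, and age and the sort gate differ together between the populations. All values below are log2 of the quantile normalized array signal, and differences are fetal minus adult basal, so that 1 log2 unit is a 2-fold difference. The share of probes well above background ranged from 76.4% to 83.3% over the arrays, and no spot was saturated.

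Imprinted genes are held in their allele-specific state by DNA methylation at control regions, where the zinc finger protein ZFP57 recognizes the letters TGCCGC when they are methylated. The promoters of the members were therefore read for these letters on both strands. RefSeq promoters (GRCm38.p6) of 300 bases, from 250 before to 50 after the annotated start, were at hand for 7 of the members, with 12 entries in all. TGCCGC, or its reverse complement GCGGCA, was present in 5 of the 12 (41.7%), compared to 11.6% of all 32851 promoters. Both of the Mest entries among these 5 overlap over nearly their whole length, and the letters hold a CG, so that promoters rich in CG dinucleotides offer more places for a match. A match is a description of the window and not evidence of a bound site. The promoters with a match belong to Plagl1, Mest, Nnat and Grb10. The matching sequences are shown 5′ to 3′ on the strand of the gene with the match in capitals.
Plagl1, chr10:13090582-13090881, plus strand: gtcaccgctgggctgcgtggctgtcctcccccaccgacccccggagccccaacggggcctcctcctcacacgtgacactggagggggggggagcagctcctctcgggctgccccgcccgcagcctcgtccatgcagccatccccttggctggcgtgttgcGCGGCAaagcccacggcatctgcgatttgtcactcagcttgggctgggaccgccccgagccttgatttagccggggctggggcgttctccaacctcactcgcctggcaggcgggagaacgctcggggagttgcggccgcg
Mest, chr6:30737800-30738099, plus strand: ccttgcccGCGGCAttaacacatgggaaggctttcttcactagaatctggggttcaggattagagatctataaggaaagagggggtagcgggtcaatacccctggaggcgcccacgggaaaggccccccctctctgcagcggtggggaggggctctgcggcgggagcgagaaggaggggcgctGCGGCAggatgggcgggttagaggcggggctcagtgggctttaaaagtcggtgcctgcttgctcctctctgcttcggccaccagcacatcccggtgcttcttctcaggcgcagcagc
Nnat, chr2:157559828-157560127, plus strand: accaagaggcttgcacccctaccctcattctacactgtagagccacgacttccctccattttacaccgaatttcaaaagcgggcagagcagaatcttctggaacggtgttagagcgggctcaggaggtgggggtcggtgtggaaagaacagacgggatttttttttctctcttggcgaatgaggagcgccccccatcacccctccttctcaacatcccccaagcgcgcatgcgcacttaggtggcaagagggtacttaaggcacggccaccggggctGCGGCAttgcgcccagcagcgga
Grb10, chr11:12037371-12037670, minus strand: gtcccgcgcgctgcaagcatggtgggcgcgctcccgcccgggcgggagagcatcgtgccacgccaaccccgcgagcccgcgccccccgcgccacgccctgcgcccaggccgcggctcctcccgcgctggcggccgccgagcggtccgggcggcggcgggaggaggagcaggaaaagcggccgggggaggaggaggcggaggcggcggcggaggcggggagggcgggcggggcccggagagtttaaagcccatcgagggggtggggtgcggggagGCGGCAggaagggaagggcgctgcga
The Grb10 window held 45 CG dinucleotides, more than in 98.1% of all promoters, and the Plagl1 window 26. The Mest and Nnat windows held 17 each. The median over all promoters was 7. Another Mest entry, at chr6:30733256-30733555, held 8 CG dinucleotides and no TGCCGC, and another Grb10 entry, at chr11:12027922-12028221, held 9 and no TGCCGC. The single entries for Peg3 and Ndn held 13 and 11 CG dinucleotides and no TGCCGC, and each of the 3 Slc38a4 entries held 5 and no TGCCGC. The recognition letters of YY1, a factor known from the Peg3 region, were searched as GCCATNTT on both strands and were found in 1 of the 12 windows, an entry of Slc38a4, and in 6.05% of all promoters.

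Cdkn1c and Grb10 are the maternally expressed members and both encode restrainers of growth. The protein of Cdkn1c inhibits cyclin-dependent kinases and is known for holding differentiating fetal cells out of the cycle. Its log2 signal was 14.24, 14.33 and 14.36 on fetal arrays 1, 2 and 3, and 8.46, 8.03 and 8.43 on adult basal arrays 1, 2 and 3. The fetal arrays were all far above the adult basal arrays and differed among themselves by less than the adult basal arrays did. The difference of 6.003 (standard error 0.14), or 64.1-fold, was the largest among the members, and 66 of 15734 tested genes had a larger one towards fetal cells. Grb10 encodes an adaptor that binds the insulin and IGF1 receptors and dampens their signal. It was at 10.96, 10.69 and 11.01 in fetal and at 8.22, 7.75 and 7.99 in adult basal cells. All fetal arrays lay above all adult basal arrays, and the difference was 2.90 (standard error 0.15), or 7.47-fold.

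**Figure D1:**
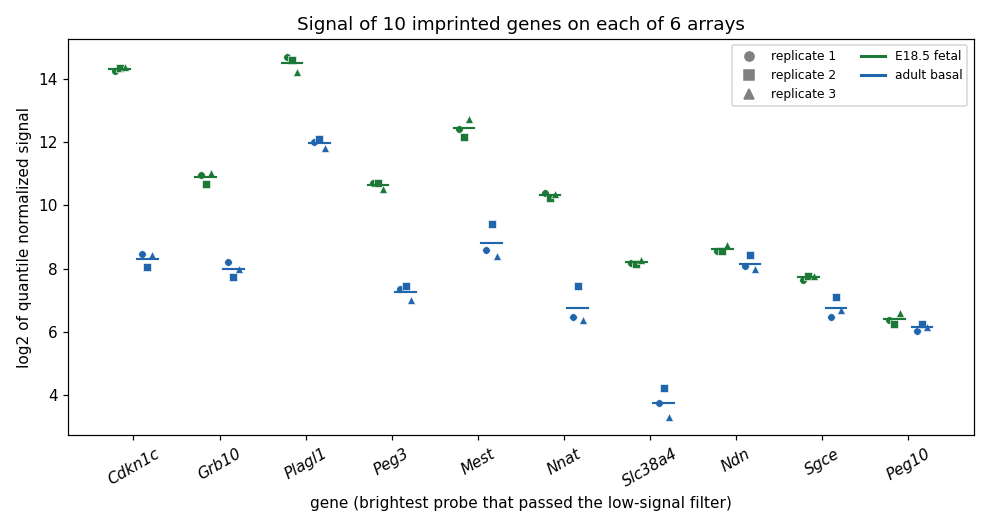
Log2 of the quantile normalized signal of the 10 imprinted genes on each array, by the brightest probe of each gene that passed the low-signal filter. Green marks are E18.5 fetal and blue marks adult basal arrays, symbols give the replicate and lines the mean of 3 arrays. Fetal and adult basal marks are separate for 9 genes and overlap for Peg10.

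Plagl1 and Peg3 encode zinc finger proteins expressed from the paternal allele. PLAGL1 is a transcription factor known to regulate other imprinted genes. The 4 probes of Plagl1, all listed under the same transcript, fell into pairs that disagreed. Probe A_55_P1961968 was at 14.70, 14.59 and 14.23 in fetal and 12.01, 12.11 and 11.83 in adult basal cells, a difference of 2.52 (standard error 0.15). Probe A_52_P532456 gave almost the same, with a difference of 2.39 (standard error 0.14). In contrast, probe A_55_P1961965 read 10.47, 10.35 and 9.97 in fetal and 9.82, 10.16 and 9.84 in adult basal cells, and its arrays overlapped. Probe A_55_P2153251 overlapped too, with a difference of 0.14 (standard error 0.12). The mean over all 4 probes differed by 1.35, so the size of the Plagl1 difference depended on the probe. The files give no position for the probes, and which part of the transcript each reads was not analysed here.

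Peg3, a paternally expressed gene known for its role in maternal care and cell death, had 2 probes that were high in fetal cells. The brighter, A_52_P235861, was at 10.71, 10.71 and 10.52 in fetal and 7.36, 7.45 and 7.0 in adult basal cells. The other, A_55_P2163319, was at 8.76, 8.69 and 8.35 against 3.996, 4.20 and 4.45. Neither overlapped, and the differences were 3.38 (standard error 0.14) and 4.38 (standard error 0.16).

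Mest and Nnat are also paternally expressed. MEST is a hydrolase-like protein of the endoplasmic reticulum known from adipose expansion, and NNAT a small membrane proteolipid known from brain and secretory tissue. The brightest Mest probe read 12.43, 12.18 and 12.73 in fetal and 8.57, 9.40 and 8.41 in adult basal cells, a difference of 3.65 (standard error 0.27), or 12.6-fold. Both other Mest probes, A_55_P2090025 and A_55_P2151868, had smaller differences of 2.74 and 2.20, again without overlap. Adult basal replicate 2 was the highest of the adult basal arrays for all 3 of them. The same array stood out for Nnat. The brightest Nnat probe was at 10.39, 10.22 and 10.37 in fetal and 6.45, 7.43 and 6.38 in adult basal cells, a difference of 3.57 (standard error 0.27), and the second probe differed by 3.21 (standard error 0.18).

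Slc38a4 encodes a sodium-coupled amino acid transporter that is abundant in placenta and liver. It was at 8.17, 8.16 and 8.28 in fetal cells, but at 3.73, 4.21 and 3.29 in adult basal cells, where only 1 of 3 arrays was well above background. Its difference was 4.46 (standard error 0.22). Near background this value depends on how background is removed. After a normexp correction it was 2.32, below the 3.46 of Mest, 3.03 of Nnat, 2.92 of Peg3, 2.65 of Grb10 and 2.57 of Plagl1, so its rank among the members was not fixed.

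Ndn, Sgce and Peg10 had the smallest differences, all under 2-fold. Ndn, which encodes the MAGE family protein necdin, a suppressor of growth in neurons, was at 8.54, 8.56 and 8.75 in fetal and 8.07, 8.42 and 7.97 in adult basal cells. The arrays were just separate, with a difference of 0.46 (standard error 0.14). Sgce encodes epsilon-sarcoglycan, a membrane protein of the dystrophin-associated complex. It was at 7.62, 7.76 and 7.78 in fetal and 6.46, 7.08 and 6.68 in adult basal cells, a difference of 0.98 (standard error 0.17). Peg10, a gene derived from a retrotransposon and needed for the placenta, read 6.37, 6.26 and 6.58 in fetal and 6.02, 6.26 and 6.15 in adult basal cells. These arrays overlapped, and the difference was 0.26 (standard error 0.13). Sgce and Peg10 are neighbours that share an imprinting control region. The second Peg10 probe, A_52_P377723, was not well above background in any of the samples and was left out by the low-signal filter.

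**Figure D2:**
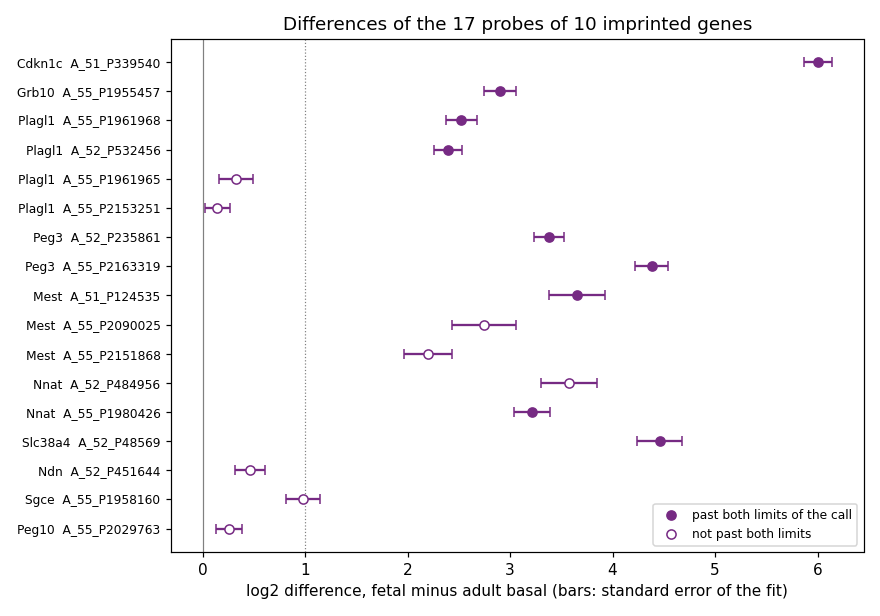
Log2 difference (fetal minus adult basal) of each of the 17 probes of the members that passed the low-signal filter, with its standard error from the fit. Filled points passed both limits of the call, the dotted line marks a 2-fold difference, and the 4 Plagl1 probes split into a pair near 2.5 and a pair near 0.

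A probe was called where limma's fit over 20448 probes gave it a 2-fold or larger difference and a Holm-adjusted p no higher than 0.05, and a gene was called by its brightest tested probe. Of all tested probes 11.1% were called, 5.92% higher in fetal and 5.18% higher in adult basal cells. By this rule 1769 of 15734 tested genes (11.2%) were called, 949 (6.03%) higher in fetal and 820 (5.21%) higher in adult basal cells. Among the members 6 of 10 were called and all 6 were higher in fetal cells, namely Cdkn1c, Plagl1, Peg3, Mest, Grb10 and Slc38a4. Nnat was past the 2-fold limit by its brightest probe but not past the Holm limit, whereas its second probe was called. For 9 of the 10 members every fetal array was above every adult basal array, which held for 33.4% of all tested genes, and the reverse held for 0 members and 35% of all tested genes. Among the probes of the members this was 14 of 17, against 34.1% of all tested probes. The median difference of the members was 3.14, against -0.04 over all tested genes. Since the members were named from this contrast, these counts describe them and nothing was read from their distance to the background. All 10 had a probe past the low-signal filter, and of the 18 probes 17 passed it and 9 were called. The calls depended on single arrays. Without fetal replicate 1 only 2 members were called, and without adult basal replicate 1 or without adult basal replicate 3 there were 3. Called probes over all genes fell too, from 2270 to 948, 1469 and 1327 in the same order. The differences moved little when 1 array was left out. Those of Mest lay between 3.46 and 3.96 and those of Plagl1 between 2.43 and 2.65. Grb10 stayed between 2.79 and 3.02 and Slc38a4 between 4.22 and 4.74. Cdkn1c and Peg3 were called under each of the 18 alternatives tried, whereas Mest was called under 6 of them.

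Arrays lay on 2 slides, each scanned as a unit, with fetal replicate 1 and adult basal replicates 1 and 3 on slide 1 and the other 3 arrays on slide 2. Within slide 1 the differences were 5.79 for Cdkn1c, 2.86 for Grb10, 2.78 for Plagl1, 3.53 for Peg3, 3.94 for Mest, 3.97 for Nnat and 4.66 for Slc38a4. Within slide 2 they were 6.31, 3.10, 2.30, 3.17, 3.06, 2.87 and 4.01 in the same order. Ndn, Sgce and Peg10 differed by 0.52, 1.05 and 0.28 within slide 1 and by 0.23, 0.68 and 0.16 within slide 2. Every member was thus higher in fetal cells on both slides. With slide as a block 4 members were called, and the calls lost were those of Plagl1 and Mest. Called probes over all genes fell from 2270 to 1541. The differences of Plagl1 and Mest were 2.54 and 3.50 with this block, against 2.52 and 3.65 without it.

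The adult basal arrays differed among themselves. Adult basal replicate 2 was the highest of the 3 adult basal arrays for 8 of the 10 members, whereas it was the highest for 34.9% of all tested genes. The exceptions were Cdkn1c and Grb10, for which it was the lowest. Relative to the mean of the adult basal arrays, replicate 2 was higher by 0.68 for Nnat, 0.61 for Mest, 0.47 for Slc38a4 and 0.34 for Sgce. The same array was the highest adult basal array for 11 of 15 tested proliferation genes, such as Cdk1 at 5.43, 7.05 and 6.15. Its correlation with the other adult basal arrays over probes was 0.981 and 0.983, against 0.990 between those. The basal keratin gene Krt14 was at 13.39 on it and at 15.25 and 15.46 on the others, but it was the lowest adult basal array for only 2 of 10 basal markers and the highest for 3. Without this array 7 members and 13 of the other imprinted genes described further on were called, against 6 and 12 with it. Adult basal replicate 3 was the lowest for 6 members and the highest for none, against 32.4% and 28.5% of all tested genes. It was the highest adult basal array for 6 of 9 tested fibroblast, 5 of 7 endothelial and 5 of 8 leukocyte markers, whose part was not tested. Among fetal arrays, replicate 3 was the highest for 7 members, against 40.3% of tested genes and 47.1% of the genes called higher in fetal cells, and the distances were small, with a median of 0.07 over the members. The same array was the highest fetal array for 9 of 9 tested fibroblast, 6 of 7 endothelial and 5 of 6 adipocyte markers and the lowest for 10 of 10 luminal and 8 of 10 basal markers, whose part in the values of the members was not tested. Without fetal replicate 3, 4 members were called, and called probes over all genes fell from 2270 to 1055. Leaving out fetal replicate 2 instead also gave 4 members, with 974 probes. Mest and Grb10, whose calls were lost without fetal replicate 3, then had differences of 3.50 and 2.82. The median SD of the members was 0.11 in fetal and 0.24 in adult basal cells (n = 3 each). Over all tested genes it was 0.12 and 0.18. Adult basal replicate 2 was the only adult basal array on slide 2. Its difference from its group thus cannot be told apart from a difference between slides and was not tested.

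**Figure D3:**
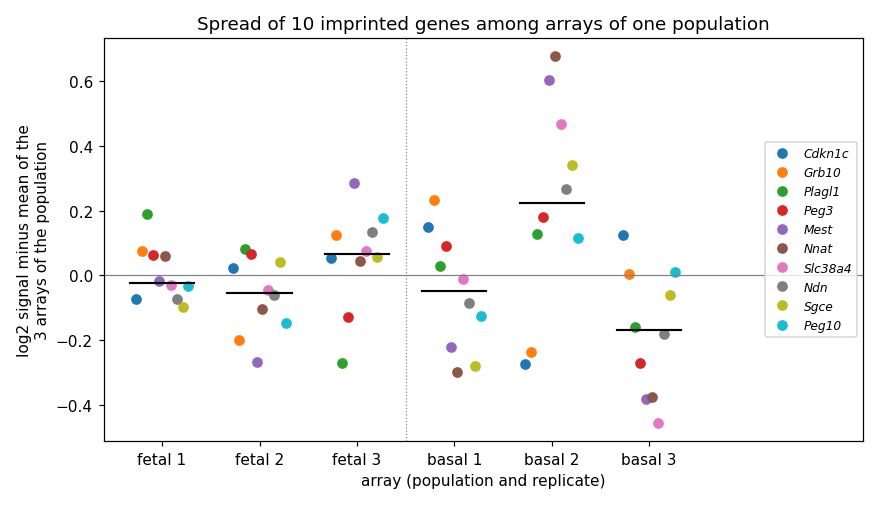
Log2 signal of each member on each array less the mean of the 3 arrays of its population. Points are genes, black lines the median over the 10 members, and 8 of 10 members are highest on adult basal replicate 2 among the adult basal arrays.

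For each member the genes with the most similar profile over the 6 arrays were found among 16288 other genes well above background on every array, as the root mean square distance between values centred on their own mean. These distances are set largely by the fetal against adult basal difference by which the members were chosen, so the names are a description. The closest to Cdkn1c was Mcm5, a subunit of the replicative helicase, at a distance of 0.195, followed by Ttyh1. Cobl, an actin nucleator gene, was the closest to Peg3 at 0.0849, just ahead of Celsr1 at 0.0898. Dlk1, which encodes a membrane protein of the Notch ligand type, was the closest to Slc38a4 at 0.111. Since Slc38a4 was well above background on only 1 of 3 adult basal arrays, its distances rest partly on values near background. Nr4a1, an immediate early nuclear receptor, was the closest gene to both Mest and Nnat, at 0.161 and 0.118. Racgap1 followed for Nnat and Rab26 for Mest. The closest genes to Grb10 were Hs6st2 and Topbp1, and those to Plagl1 were Evpl, which encodes envoplakin, and Epb41l5. For the members with small differences many genes were as near, since 2742 genes lay within 0.25 of Ndn and 4488 within 0.25 of Peg10, whereas 119 lay that near to Plagl1, 105 to Grb10, 77 to Peg3, 27 to Slc38a4, 8 to Nnat, 7 to Mest and 5 to Cdkn1c.

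The rest of the imprinted class gave both directions. Of 59 other imprinted genes listed by their expressed allele, 54 had a probe and 44 were tested. The arrays read the RNA of both alleles together, so which allele was expressed in these cells was not measured. Among the 18 paternally expressed genes tested, 4 were called and higher in fetal cells and 0 were called in the other direction. They were Dlk1 (difference 4.47, Holm-adjusted p = 0.015), Zdbf2 (2.82, adjusted p = 0.0036), the splicing gene Snrpn (2.13, adjusted p = 0.0043) and the growth factor Igf2 (2.11, adjusted p = 0.0061). Airn, a noncoding RNA that silences Igf2r on the paternal allele, was not called by its brightest probe, at -0.02, whereas its other tested probe was called at 2.56. The median of the 18 was 0.09, close to that of all tested genes. Nap1l5 was at 6.45, 7.16 and 6.27 in adult basal cells and not well above background in any fetal sample, which makes it at least 7.24-fold higher in adult basal cells, but it was not called (adjusted p = 0.14). Among the 26 maternally expressed genes tested, 5 were called and higher in fetal cells, 3 were called and higher in adult basal cells, and the median was 0.33. The noncoding RNAs Meg3 (4.39, adjusted p = 1.6e-04) and Mirg (4.20, adjusted p = 9.4e-05) of the Dlk1 region and Cobl (3.53, adjusted p = 0.0013) had the largest called differences towards fetal cells. The growth factor receptor Igf2r, which removes IGF2 from the cell surface, was higher by 1.82 (adjusted p = 0.014). Higher in adult basal cells were the matrix proteoglycan gene Dcn (-3.78, adjusted p = 0.0023), the transcription factor gene Ascl2 (-1.82, adjusted p = 0.018) and the lipid carrier gene Osbpl5 (-1.80, adjusted p = 0.0089). Leaving out fetal replicate 2 reduced the 12 calls among other imprinted genes to 4. Without fetal replicate 1 or adult basal replicate 1 there were 5, and without adult basal replicate 3 there were 7.

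Genes of one imprinted region did not all differ in the direction of the member. Around Cdkn1c the difference of the member was 6.003, whereas among 10 listed neighbours only the transporter gene Slc22a18 was called higher in fetal cells (2.08, Holm-adjusted p = 0.0035), and Osbpl5 and Ascl2 were called in the other direction. Phlda2, a placental growth restrainer, was at 7.52, 7.67 and 7.88 in fetal cells and well above background on only 1 adult basal array, a difference of 3.69 that was not called. The antisense transcript Kcnq1ot1, which silences this region on the paternal allele, differed by -0.88 and was not called. The region of Grb10 was different in that all 3 of its tested neighbours were called higher in fetal cells. They were Fignl1, a gene of DNA repair, with a difference of 4.96 (adjusted p = 2.5e-04), Cobl, an actin nucleator gene, and Ddc, which encodes an enzyme of dopamine and serotonin synthesis, with 3.37 (adjusted p = 0.0094). A second tested Ddc probe differed by only -0.07. Near Mest, Cep41 was called at 1.77 and Copg2 was not, with 0.91. Near Ndn, Snrpn was called higher in fetal cells, whereas Magel2 (-0.64), Mkrn3 (-0.53) and Peg12 (1.00) were not called. The direction of Mkrn3 and Peg12 depended on the probe, since their second probes differed by 1.07 and -0.07. Near Sgce and Peg10, Ppp1r9a was not called, with a difference of 5.72 and adult basal arrays at 4.78, 2.08 and 4.68. Only 2 of these 3 arrays were well above background, and its other tested probe differed by 3.84. Casd1 differed by 0.80. Pdk4, which encodes a mitochondrial kinase induced by fasting, was higher in adult basal cells by a difference of -6.33 (adjusted p = 0.0035). None of the tested neighbours of Plagl1, Peg3, Nnat and Slc38a4 was called. Near Slc38a4 this includes Amigo2, which encodes a cell adhesion protein and was at least 12.0-fold higher in fetal cells, with no adult basal sample well above background (adjusted p = 0.060). For Nnat this includes Blcap, the gene in whose intron Nnat lies, with a difference of -1.05.

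**Figure D4:**
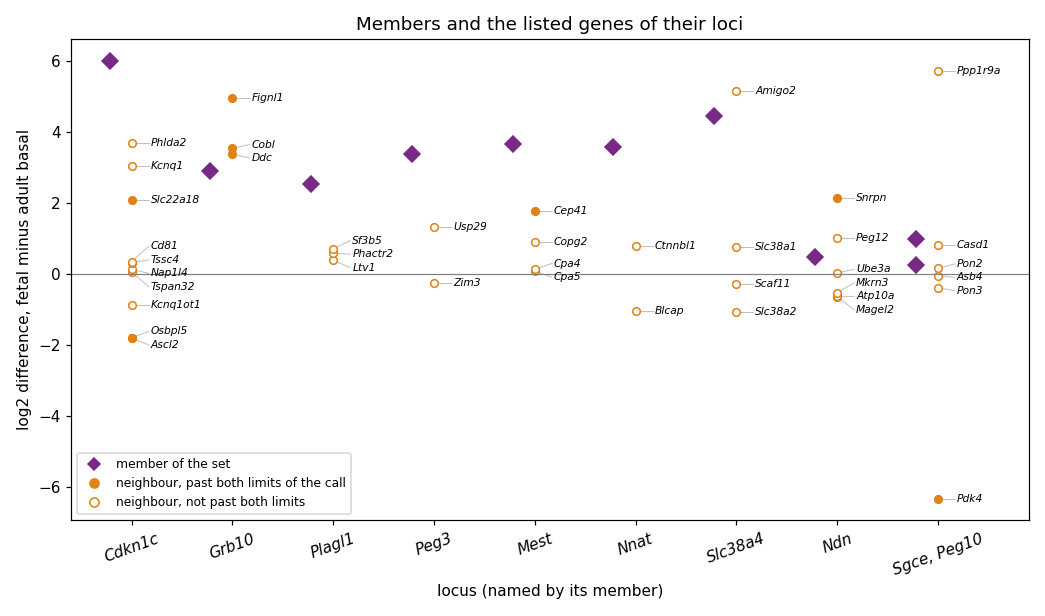
Log2 difference (fetal minus adult basal) of each member (purple diamonds) and of the listed genes of its region (orange circles, filled where called). The 3 tested neighbours of Grb10 lie between 3.37 and 4.96, and the neighbours of Cdkn1c between -1.82 and 3.69.

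Relatives and partners of the members were counted from lists that, like the members, were chosen with earlier results of these data known. Of the other CDK inhibitors, Cdkn2b was called higher in fetal cells (3.40, Holm-adjusted p = 8.9e-04) and Cdkn1a, an effector of p53, higher in adult basal cells (-2.13, adjusted p = 0.019), while Cdkn1b, with a difference of -1.51, was not called. Among 9 tested genes of the insulin and IGF receptor pathway that GRB10 meets, the receptor gene Igf1r was called higher in adult basal cells (-2.65, adjusted p = 0.023) and 0 genes were called the other way. Insr was at 8.42, 8.31 and 8.34 in fetal and 8.67, 8.73 and 8.98 in adult basal cells and was not called. Plag1, the growth-promoting relative of Plagl1, was called at 3.14 (adjusted p = 3.2e-04), with 2 of 3 adult basal arrays well above background. No gene was called among 9 tested SLC38 transporters, 6 MAGE genes, 9 sarcoglycan complex genes and 5 gag-derived genes. The median differences of these lists were 0.00, -0.01, -0.82 and -0.06. For 7 of the 9 sarcoglycan complex genes every fetal array was below every adult basal array, against 35% of all tested genes. The reverse held for 0 of the 9. Among factors that set or keep imprints, Uhrf1, a partner of the maintenance methyltransferase, was called at 7.19 (adjusted p = 1.8e-05) and the methyltransferase gene Dnmt3b at 1.96 (adjusted p = 0.010), as 1 of its 3 tested probes, whereas Dnmt1 (1.44), Zfp57 (-0.15 and -1.26 by its 2 tested probes) and Trim28 (0.60) were not called.

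Several cell type and proliferation lists also differed between the populations, and their part in the differences of the members was not tested. In bulk RNA, fewer cells of a type and less RNA per cell cannot be told apart. Of 15 proliferation genes, 14 were called higher in fetal cells and 0 in adult basal cells, with a median of 5.64, including Cdk1 (6.77) and Mki67 (5.98), the gene of the Ki-67 antigen. Bub1 differed by 6.92 with 2 of 3 adult basal arrays well above background, and Aurkb, with none, was at least 27.5-fold higher in fetal cells. The 3 tested Cdk1 probes ranged from 0.96 to 6.77. Tyms, at 0.10, was the exception. Their summed signal was 159396, 169926 and 176044 in the fetal samples and 17598, 18304 and 17641 in the adult basal samples, with Pcna as the largest term. For the members the sums were 57338, 55356 and 53073 in the fetal samples and 5851, 6503 and 5215 in the adult basal samples, with Plagl1 as the largest term. Such sums add probes whose brightness is not comparable, so bright probes weigh most. The basal label was checked against 10 basal marker genes, of which 8 were called higher in adult basal cells, with Myh11 (-8.63), Cnn1 (-6.01) and Tagln (-4.87) the largest. Trp63 was not called by its brightest probe, at -0.08, whereas its other tested probe was called at -3.06. Of 10 luminal markers 5 were called higher in fetal cells, led by Elf5 (7.55), Cldn3 (4.39) and Kit (4.0), and 0 in adult basal cells. Both populations carried the keratin genes Krt8 and Krt18, with differences of 0.44 and 0.58. Krt19, another luminal keratin gene, was lower on every fetal than on every adult basal array, with a difference of -1.22 that was not called.

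Few markers of other cell types were called. Every fetal array was below every adult basal array for 8 of 9 tested fibroblast and 5 of 7 endothelial markers, against 35% of all tested genes. For leukocyte markers this held for 3 of 8, near that share. Among 9 tested fibroblast markers Pdgfrb was called higher in adult basal cells (-4.34, Holm-adjusted p = 5.6e-04), 0 were called higher in fetal cells, and the median was -0.90. Their summed signal, with Col1a2 as the largest term, was 6365, 6419 and 7909 on fetal and 10865, 12534 and 16654 on adult basal arrays. For 7 tested endothelial and 8 tested leukocyte markers no gene was called, with medians of -1.56 and -0.64. Their summed signals were 0.91 times as high in fetal as in adult basal cells for both, with Kdr (-0.04) and Csf1r (-0.06) as the largest terms, while Cdh5 (-2.70), Esam (-3.77) and Cd52 (-4.39) had negative differences that were not called. Acta1 was the only gene called among 5 tested skeletal muscle markers (-4.68), and Myf5 was not well above background in any sample. None of the 6 adipocyte, 7 Schwann cell and neuron or 3 erythroid markers tested was called, but single genes were high on some fetal arrays. The hemoglobin gene Hbb-bt was at 6.33, 9.28 and 9.29 in fetal cells and not well above background in any adult basal sample. By the mean of its fetal log2 values it was at least 21.3-fold higher, a bound that does not describe the lower fetal replicate 1. The glial gene S100b was at 6.69, 6.75 and 7.42 in fetal and 3.76, 2.24 and 4.07 in adult basal cells, with 1 adult basal array well above background. The adipocyte hormone gene Adipoq was at 5.62, 3.99 and 8.17 in fetal and 3.31, 4.11 and 3.50 in adult basal cells, so its arrays overlapped, with 2 fetal arrays and no adult basal array well above background. Of 5 tested epidermal markers Krt10 was called higher in fetal cells (1.47, adjusted p = 0.022). For 4 of the 5 every fetal array was above every adult basal array, against 33.4% of all tested genes, with differences of 4.11 for Krtdap and 1.95 for Krt1 that were not called. The median was 1.47 and the summed signal was 2.63 times as high in fetal cells, with Krt10 as the largest term.

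**Figure D5:**
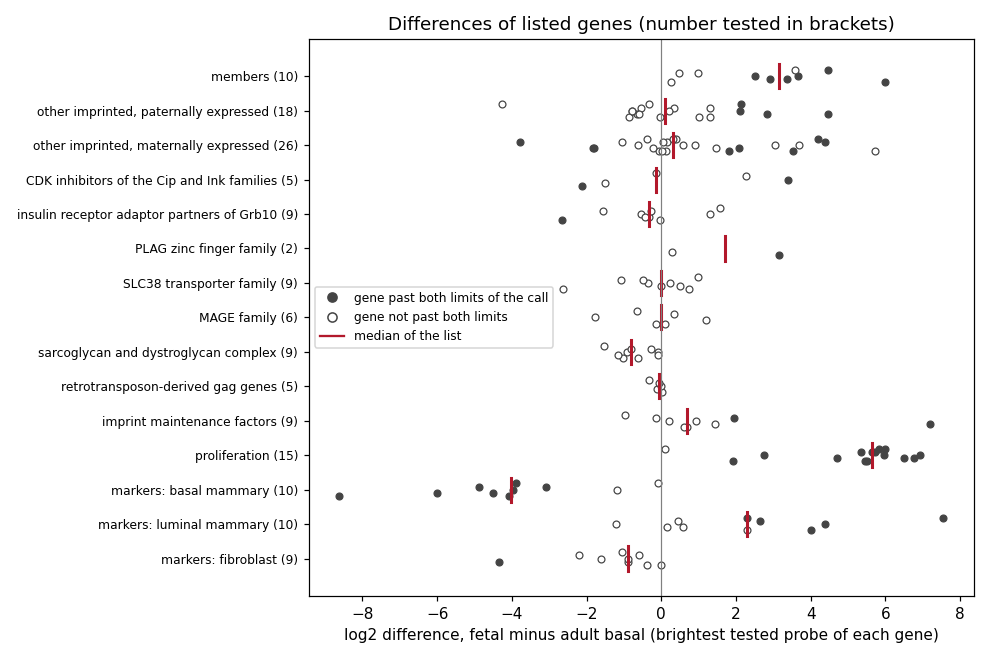
Log2 difference (fetal minus adult basal) of each tested gene of 15 lists, with the number tested in brackets. Filled points were called, red lines are list medians, and the members have a median of 3.14, proliferation genes 5.64 and other imprinted genes 0.09 and 0.33.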

How the data were processed

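Each of the 6 RNA samples, 3 fetal and 3 adult basal, was hybridized to its own Agilent mouse expression array in a single color, and groups and replicate numbers were taken from the sample labels. The labels describe labelling with the Low Input Quick Amp kit, whereas the methods name its whole-transcript form. The deposited spot intensity is the background-subtracted processed signal of Feature Extraction 11.0.1.1, as given in the submitters' processing notes. The authors also deposited log2 values, quantile normalized in GeneSpring, whose deposited columns each matched their own array (correlation of deviations from probe means between 0.971 and 0.996).

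Here the processed signal was taken to log2, control and outlier spots (104 to 326 on an array) were left out, replicate spots were averaged, and quantile normalization was applied over all 6 arrays. Probes were matched by unversioned accession to a RefSeq table of GRCm38.p6, of which no gene coordinates are given, the design of the array being on another build. Probes with low signal in both populations were dropped. The limit, near 5.95 log2 units, lay between the lowest and middle of 3 k-means clusters (100 starts, seed 1), and 20448 probes remained. The filter took the log2 of the mean linear signal of each population and kept a probe that reached the limit in either. Adipoq was therefore kept, although the means of its log2 values were 5.92 in fetal and 3.64 in adult basal cells. The lmFit and eBayes functions of limma 3.58.1 (R 4.3.3) gave the differences, and calls needed both a Holm-adjusted p up to 0.05 and a 2-fold difference. The fit was tested on simulated data. A gene was represented by its brightest tested probe. Tables and plots were made with Python 3.11.15, pandas 2.3.3, numpy 2.4.6 and matplotlib 3.10.9.

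The members and the lists were chosen with earlier results of these data known. All members were named with every probe. From each other list up to 3 called genes with the largest difference in each direction and up to 3 uncalled genes with the highest signal could be named, and from the regions of the members every gene; for each member the 2 genes with the nearest profile could be named. Igf2, Igf2r, Nap1l5, Insr, Dnmt1, Zfp57, Mki67, Pcna, Adipoq, Myf5, S100b, Krtdap, Cdh5, Esam, Cd52 and Krt19 were added after their values were seen. With 3 arrays against 3 an exact permutation test cannot give a p below 0.1, and the number of arrays limits the precision. The planned normexp correction was run on the median spot intensity (offset 50) because the files hold no mean. The labels do not say whether replicates came from separate animals or pools, so p-values measure the spread between these samples.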

Additional observations from a re-analysis of the deposited data

How the results depend on the processing

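No member changed direction under those of the 18 alternatives in which it had a value. Alternatives that changed only the filter, the set of probes, the adjustment, the variance model or the replicate block left the differences of the members unchanged. They could not alter a direction, by which the members were chosen in any case. The higher-in-fetal part of all calls stayed between 51.1% and 55.0%. The 2270 called probes became 1182 with no low-signal filter and 6133 with Benjamini-Hochberg adjustment, which also raised the calls among other imprinted genes from 12 to 20. Leaving out 1 array at a time gave between 948 and 1949 called probes, between 2 and 7 called members and between 4 and 13 called other imprinted genes. Called members numbered between 4 and 7 under the other alternatives. Mest lost its call under 12 alternatives, Plagl1 under 7, Grb10 under 3 and Slc38a4 under 2, and Nnat gained one under 7. The cause was not tested. Samples with the same replicate number did not deviate together (correlations -0.03, 0.09 and 0.05), and a replicate block gave 1302 called probes, 5 members and 6 other imprinted genes. Sgce by normexp, and Peg10 by normexp or when 16 was added, did not pass the low-signal filter and have no value there. Members near background, Slc38a4 above all, are limited by signal over background: its difference was 2.32 by normexp and 3.39 when 16 was added before the log.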
